A study of Mus musculus with 6 samples.

Results

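Integrins are surface receptors made of an α and a β chain that bind cells to each other and to matrix. Leukocytes use a small set of them. The β2 chain (*Itgb2*, CD18) pairs with CD11a (*Itgal*), CD11b (*Itgam*), CD11c (*Itgax*) or CD11d (*Itgad*), the β7 chain (*Itgb7*) with CD103 (*Itgae*) or α4 (*Itga4*), and the β1 chain (*Itgb1*) with α4 and other α chains. ICAM-1 (*Icam1*) is a ligand of β2 integrins. CD11c marks dendritic cells (DCs), CD103 marks cDC1s of peripheral tissues, the conventional DCs that cross-present antigen, and CD11b marks cDC2s and other myeloid cells. These 10 genes were picked by name, and all 10 were among the 12894 genes with enough reads to be tested, of 54532 gene identifiers listed.

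RNA was measured in 6 libraries of cDC1s grown from mouse bone marrow with 80 ng/mL FLT3L, a cytokine that drives DC development, for 8 days. In 3 libraries both floxed genes, *Jun* (c-Jun) and *Junb* (JunB), were intact (c-Jun/JunB fl/fl, here fl/fl 1, 2 and 3). The other 3 came from c-Jun/JunB fl/fl Itgax-Cre mice (here Δ/Δ 1, 2 and 3, after the study's name for the deleted alleles). The study used adult mice of both sexes on a mixed 129 Sv and C57BL/6 background, and the mice of all 6 libraries carried the floxed alleles. The Cre was driven by the *Itgax* promoter and was carried by the Δ/Δ mice alone, so the deletion and the transgene cannot be told apart. Cells were sorted as CD24+ and CD11c+ without B220, CD115 or CD172a, so the protein made from *Itgax* was itself a gate in both genotypes. The labels do not say whether the cultures came from separate animals (a figure legend of the study counts individual mice), so p-values measure the spread between these libraries, which may be technical. Each library held 21693217 to 26788296 reads on genes. Levels are given as CPM, counts scaled to 1000000 reads on genes with TMM factors, always in the order of library 1, 2 and 3, and SE is the standard error of a fitted difference.

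3 of the genes lie side by side on mouse chromosome 7 (mm10, GRCm38), all on the plus strand and in the order *Itgam* (128062640 to 128118491), *Itgax* (128129547 to 128150657) and *Itgad* (128154376 to 128223816). *Itgam* ended 11.1 kb before the start of *Itgax*, and *Itgad* began 3.72 kb after its end. *Itgal* (127296260 to 127335138) lies on the same chromosome and strand, 833 kb upstream by gene start. The 250 bases before the RefSeq start (GRCm38.p6, plus strand) are shown for the neighbours *Itgax* and *Itgam*, whose fitted differences between the genotypes had opposite signs. Capitals mark the sequence letters TGANTCA, with any base at N. This pattern includes, and is wider than, the AP-1 element TGA(C/G)TCA to which Jun proteins can bind.
*Itgax*, chr7:128129300-128129549: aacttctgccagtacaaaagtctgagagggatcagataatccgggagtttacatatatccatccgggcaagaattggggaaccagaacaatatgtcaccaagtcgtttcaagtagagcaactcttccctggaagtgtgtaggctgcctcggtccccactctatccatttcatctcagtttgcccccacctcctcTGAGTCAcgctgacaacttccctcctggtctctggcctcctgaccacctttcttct
*Itgam*, chr7:128062390-128062639: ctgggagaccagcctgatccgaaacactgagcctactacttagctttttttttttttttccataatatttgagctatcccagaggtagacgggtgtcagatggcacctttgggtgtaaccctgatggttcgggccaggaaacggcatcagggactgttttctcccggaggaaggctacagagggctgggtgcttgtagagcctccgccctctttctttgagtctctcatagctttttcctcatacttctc
The letters TGANTCA and TGACGTCA were searched on both strands in windows from 250 bases before to 50 bases after the start. Entries existed for 6 of the 10 genes (*Itgax*, *Itgam*, *Itga4*, *Itgb1*, *Itgb7* and *Icam1*), and 1 of the 6, *Itgax*, held a match. It read TGAGTCA and began 56 bases before the start. Among all 32851 promoters of this length, 7.81% held TGANTCA with any base at N and 1.79% held TGACGTCA. The share with TGAGTCA alone was not counted. A match describes letters and not a bound site.

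*Itgax* (ENSMUSG00000030789.9), which encodes the CD11c chain, fell in the Δ/Δ libraries, and it was the only gene of the 10 to pass an adjusted p of 0.05. It had 114, 128 and 153 CPM in the fl/fl libraries against 44.8, 55.1 and 69.0 CPM in Δ/Δ 1, 2 and 3. Every Δ/Δ library lay below every fl/fl library. The mean was 131 ± 19.99 CPM (SD, n = 3) in fl/fl and 56.3 ± 12.2 CPM (SD, n = 3) in Δ/Δ, a 2.33-fold lower fitted level (log2 fold change −1.22 ± 0.17 SE, adjusted p = 0.0147 by the quasi-likelihood test of edgeR, Benjamini-Hochberg adjusted over all genes tested). Fewer cells with the RNA and less RNA per cell cannot be told apart in such bulk libraries. Among all genes tested, 3.88% passed this threshold and 1.85% did so with a lower level in Δ/Δ. With a log2 fold change of at least 1 as a further limit, 1.86% were called and 0.869% were called lower, *Itgax* among them. The log2 fold change of *Itgax* ran from −1.40 to −1.08 with any 1 library left out. Leaving out fl/fl 1, 2 or 3 took its adjusted p past 0.05 (0.0526, 0.0781 and 0.0505).

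**Figure D1:**
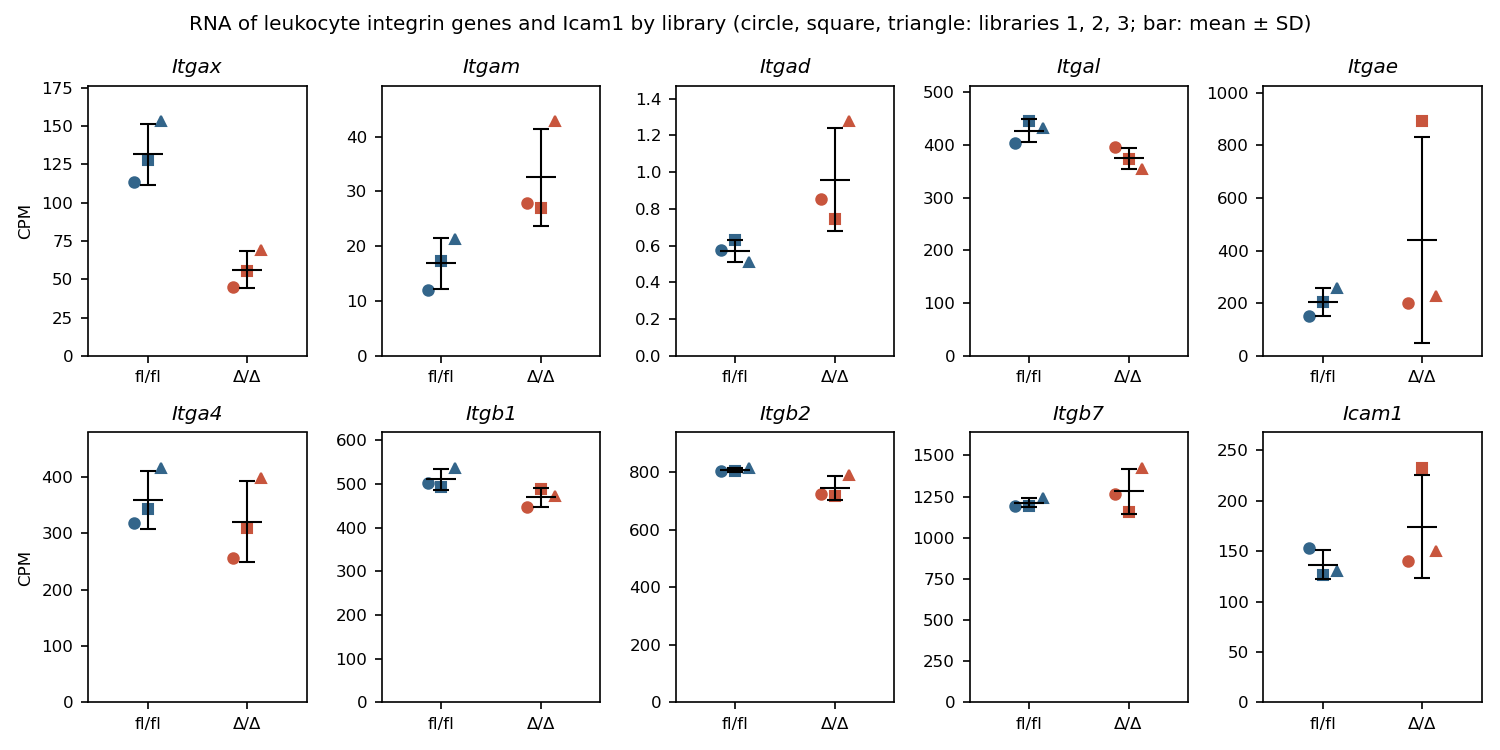
Level of each gene in CPM (y axis, from 0) in the fl/fl (blue) and Δ/Δ (red) libraries, with circles, squares and triangles for libraries 1, 2 and 3 and bars for the mean ± SD. The 3 Δ/Δ libraries of *Itgax* sit between 44.8 and 69.0 CPM, below all fl/fl libraries, and Δ/Δ 2 stands apart for *Itgae* with 892 CPM.

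*Itgam* (ENSMUSG00000030786.18), which encodes the CD11b chain, was on the opposite side. It had 12.1, 17.2 and 21.3 CPM in the fl/fl libraries against 28.0, 27.02 and 42.8 CPM in Δ/Δ 1, 2 and 3. The genotypes did not overlap, with means of 16.9 ± 4.62 CPM and 32.6 ± 8.86 CPM (SD, n = 3 each). The difference did not pass the threshold in edgeR's test (log2 fold change 0.95 ± 0.25 SE, adjusted p = 0.0927). It did pass with DESeq2's Wald test (adjusted p = 0.00303) and with no filter on low counts (edgeR, adjusted p = 0.0342). Its adjusted p spanned 0.00303 to 0.282 over the alternatives. A predicted gene on the same strand, *Gm49368*, shares 3450 of the 5024 exonic bases of *Itgam* (68.7%) and had 3 reads over the 6 libraries. STAR counts a fragment that lies on exons of both genes for neither, so fragments on the shared bases would be missing from the count of *Itgam*, and its level may be understated in both genotypes. The other 1574 bases are those of GENCODE M21, since the exons of vM19, with which the counts were made, were not used here, and where the counted reads lie was not measured.

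The gene on the other side of *Itgax*, *Itgad* (ENSMUSG00000070369.13) for the CD11d chain, had few reads. Its levels were 0.578, 0.630 and 0.509 CPM in the fl/fl libraries (15, 17 and 12 reads) against 0.852, 0.747 and 1.28 CPM in the Δ/Δ libraries (21, 16 and 29 reads). All Δ/Δ values lay above all fl/fl values, but the difference did not pass the test (log2 fold change 0.74 ± 0.35 SE, edgeR adjusted p = 0.307) and was 0.48 without Δ/Δ 3. A processed pseudogene on the same strand, *Gm17831*, shares 330 of its 4510 exonic bases.

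*Itgal* (ENSMUSG00000030830.18), for the CD11a chain of LFA-1, which binds ICAM-1 on partner cells, had the highest level per length of the β2 partners. Its levels were 404, 445 and 433 CPM in the fl/fl libraries against 396, 373 and 355 CPM in Δ/Δ 1, 2 and 3. The Δ/Δ libraries were all lower, by an amount that did not pass the test (log2 fold change −0.19 ± 0.07 SE, edgeR adjusted p = 0.178). The shared β2 chain, *Itgb2* (ENSMUSG00000000290.13, chromosome 10, 77530252 to 77565708), had 803, 804 and 815 CPM in the fl/fl libraries against 724, 715 and 791 CPM in Δ/Δ 1, 2 and 3. It too was lower in every Δ/Δ library without passing the test (log2 fold change −0.12 ± 0.06 SE, edgeR adjusted p = 0.312).

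**Figure D2:**
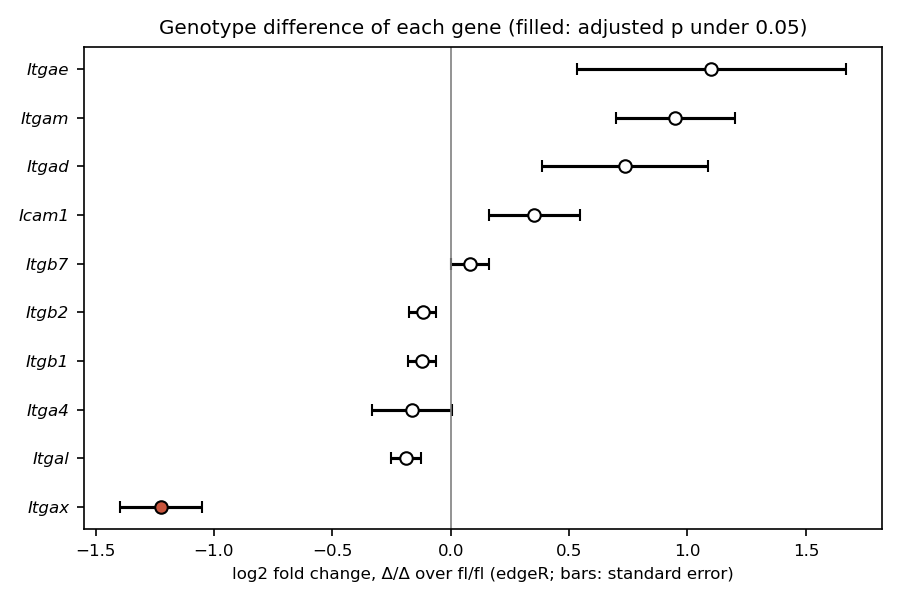
Log2 fold change of each gene between Δ/Δ and fl/fl (x axis, with values above 0 higher in Δ/Δ) with its standard error from edgeR, filled where the adjusted p was under 0.05. *Itgax* at −1.22 is the filled point, *Itgae*, *Itgam* and *Itgad* lie at 1.10, 0.95 and 0.74 with wide errors, and the 3 β chains lie between −0.12 and 0.08.

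Levels of different genes are set side by side per length, as CPM per kb of exon. In fl/fl libraries these mean levels were 438 for *Itgb7*, 264 for *Itgb2*, 125 for *Itgb1*, 65.0 for *Itgal*, 44.8 for *Itgae*, 31.3 for *Icam1*, 27.4 for *Itgax*, 25.7 for *Itga4*, 3.36 for *Itgam* and 0.127 for *Itgad*. Ranges over the fl/fl libraries overlapped between *Itgae* and *Icam1*, between *Icam1* and *Itgax*, and between *Itgax* and *Itga4*, so the order of these neighbours is not separated by their spread. In Δ/Δ libraries *Itgax* was at 11.7 and lay behind *Itga4* at 23.0, while *Itgam* was at 6.49. Over the bases not shared with *Gm49368*, *Itgam* would have 10.7 ± 2.94 in fl/fl and 20.7 ± 5.63 in Δ/Δ (SD, n = 3 each), if no counted read came from the shared bases.

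The β2 partners can also be read as shares of their sum. Of the summed per-length level of the 4 α chains, *Itgax* made up 26.99, 27.2 and 31.2% in fl/fl 1, 2 and 3 and 12.4, 15.5 and 18.6% in Δ/Δ 1, 2 and 3. The share of *Itgam* was 3.47 ± 0.705% in fl/fl and 8.57 ± 2.14% in Δ/Δ, and that of *Itgal* was 67.9 ± 3.00% and 75.6 ± 5.13% (SD, n = 3 each). With the unshared length of *Itgam*, a setting chosen after the data were seen, its shares were 10.3 and 22.9%, those of *Itgax* 26.4 and 13.0%, and those of *Itgal* 63.2 and 63.8%.

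The ratio of *Itgam* to *Itgax*, per length over all exonic bases of each gene and taken within a library, was 0.102, 0.129 and 0.133 in fl/fl 1, 2 and 3. In Δ/Δ 1, 2 and 3 it was 0.597, 0.468 and 0.593. All Δ/Δ ratios lay above all fl/fl ratios, with a difference of 2.19 on the log2 scale (SD 0.21 in fl/fl and 0.20 in Δ/Δ, two-sided exact permutation test, p = 0.1, the smallest that 3 against 3 libraries can give, 0.15 adjusted over the 3 ratios tested). This separation, and with it the p-value, follows from *Itgam* and *Itgax* each not overlapping, in opposite directions, and is no further evidence. With the unshared length of *Itgam* the ratios were higher in all libraries, 0.325, 0.412 and 0.425 against 1.91, 1.49 and 1.89, with the same log2 difference. *Itgb2* over the sum of its 4 partners was 3.00, 2.69 and 2.61 in fl/fl 1, 2 and 3 and 3.15, 3.17 and 3.35 in Δ/Δ 1, 2 and 3. This difference was 0.22 on the log2 scale (exact permutation test, p = 0.1, adjusted 0.15) and 0.08 with the unshared length of *Itgam* (exact permutation test, p = 0.4). The sum holds *Itgax* and *Itgal*, both already seen to be lower in Δ/Δ without overlap, so this ratio is no separate evidence either.

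**Figure D3:**
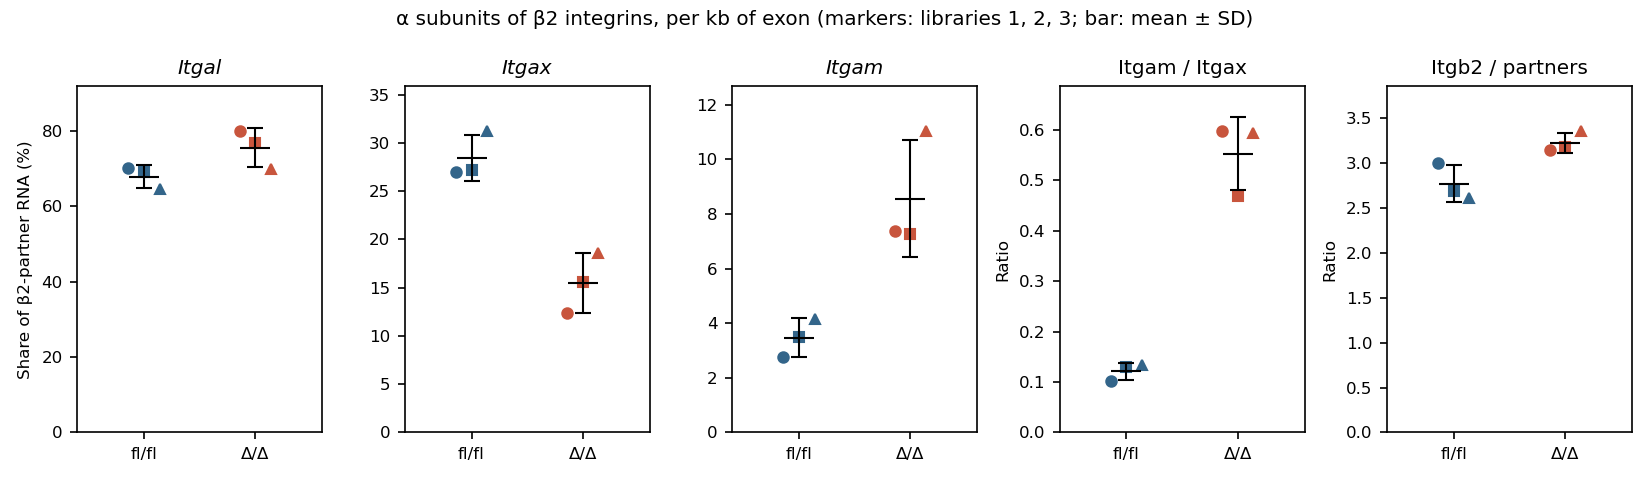
Share of *Itgal*, *Itgax* and *Itgam* in the summed per-length level of the 4 β2 partners (y axis, %) and, in the 2 panels on the right, the ratios of *Itgam* to *Itgax* and of *Itgb2* to its partners (no unit), by library with the mean ± SD. The share of *Itgax* goes from 28.5 to 15.5%, and the *Itgam* to *Itgax* ratio from 0.121 to 0.553.

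The genes around *Itgax* were read from the same fit. Within 500 kb to each side of its start, 64 genes were annotated and 28 were tested, *Itgam*, *Itgax* and *Itgad* among them. None of the other 25 passed an adjusted p of 0.05 in edgeR's test, where 4 had an unadjusted p under 0.05, and 1 passed with DESeq2. Their log2 fold changes lay between −0.61 and 0.24 with a median of 0.0018, equal to that of all genes tested to 2 significant digits. The lowest adjusted p among them was 0.0543 (edgeR), for *Rgs10*, a regulator of G protein signalling named after its values were seen, with 194 CPM in the fl/fl group against 158 CPM in Δ/Δ (log2 fold change −0.30 ± 0.07 SE). Libraries of the genotypes did not overlap for 5 of the 25, beside 26.0% of all genes tested.

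**Figure D4:**
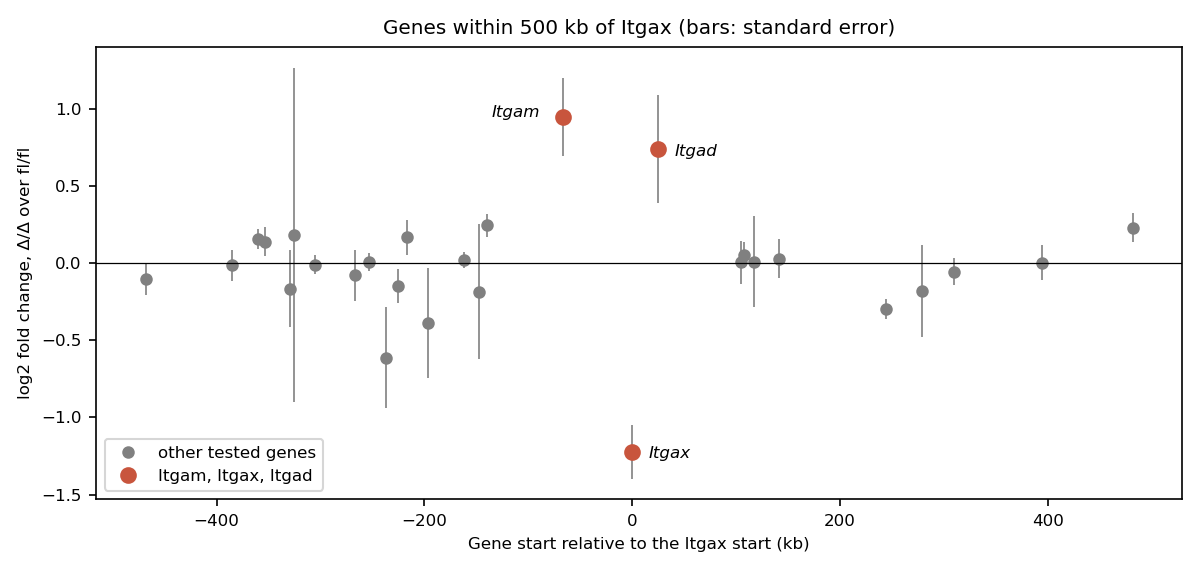
Log2 fold change between Δ/Δ and fl/fl with its standard error (y axis) of all 28 tested genes that start within 500 kb of the *Itgax* start, against the distance between the starts in kb (x axis). *Itgax* lies at −1.22, with *Itgam* and *Itgad* at 0.95 and 0.74 on either side, while the other 25 genes lie between −0.61 and 0.24.

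*Itgae*, for the CD103 chain that binds E-cadherin (ENSMUSG00000005947.11, chromosome 11, 73090583 to 73147446), differed between Δ/Δ libraries more than between genotypes. It had 151, 206 and 258 CPM in the fl/fl libraries against 201, 892 and 229 CPM in Δ/Δ 1, 2 and 3. Δ/Δ 2 had 4.16 times the mean of the other 2 Δ/Δ libraries, both of which lay inside the fl/fl range. The fitted difference did not pass the test (log2 fold change 1.10 ± 0.57 SE, edgeR adjusted p = 0.343) and was 0.06 without Δ/Δ 2 (edgeR adjusted p = 0.895). *Haspin* lies within *Itgae* on the opposite strand and shares none of its exons.

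*Icam1* (ENSMUSG00000037405.8, chromosome 9, 21015985 to 21028817) was also highest in Δ/Δ 2. Its levels were 153, 126 and 130.4 CPM in the fl/fl libraries against 140.2, 233 and 149.9 CPM in Δ/Δ 1, 2 and 3. The difference of 0.35 on the log2 scale (standard error 0.19, edgeR adjusted p = 0.367) was 0.09 without Δ/Δ 2. An antisense gene, *Gm47079*, overlaps 511 of its exonic bases, and the strand setting of the counts was not found in the study's methods or labels.

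Like *Itgae*, genes of mature DCs were highest in Δ/Δ 2, though not higher across the genotypes. *Ccr7*, the receptor that guides mature DCs to lymph nodes, had 221, 151 and 159.9 CPM in the fl/fl libraries against 26.9, 376 and 60.8 CPM in Δ/Δ 1, 2 and 3. *Fscn1*, an actin bundler of mature DCs, had 293, 183 and 236 CPM in the fl/fl libraries against 31.8, 655 and 92.7 CPM in Δ/Δ 1, 2 and 3. Both were thus highest in Δ/Δ 2 and lowest in Δ/Δ 1 and 3, where *Itgae* stayed inside its fl/fl range. Δ/Δ 2 over the mean of Δ/Δ 1 and 3 was 15.7 for *Ccl22*, 10.5 for *Fscn1*, 8.59 for *Ccr7* and 5.73 for *Il4i1*. It was only 1.69 for *Cd83* and 1.17 for *Cd86*. None of the 6 mature DC genes passed by edgeR or DESeq2, or had an unadjusted p under 0.05 in edgeR's test. Their summed level was 929 to 1237 CPM in the fl/fl libraries against 469, 2029 and 640 CPM in Δ/Δ 1, 2 and 3. *Cdh1*, which encodes E-cadherin, the ligand of CD103, had 1.62, 1.04 and 4.79 CPM in the fl/fl libraries against 2.27, 17.0 and 3.92 CPM in Δ/Δ 1, 2 and 3. Genes of other cells were also highest in Δ/Δ 2. The 4 B cell markers summed to 37.8 CPM there, against 7.99 and 18.7 CPM in Δ/Δ 1 and 3 and at most 22.0 CPM in fl/fl. *Spib*, a pDC marker, had 69.4 CPM in Δ/Δ 2 and at most 43.3 CPM in any other library. The part of mature or other cells in the *Itgae* and *Icam1* levels was not tested.

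**Figure D5:**
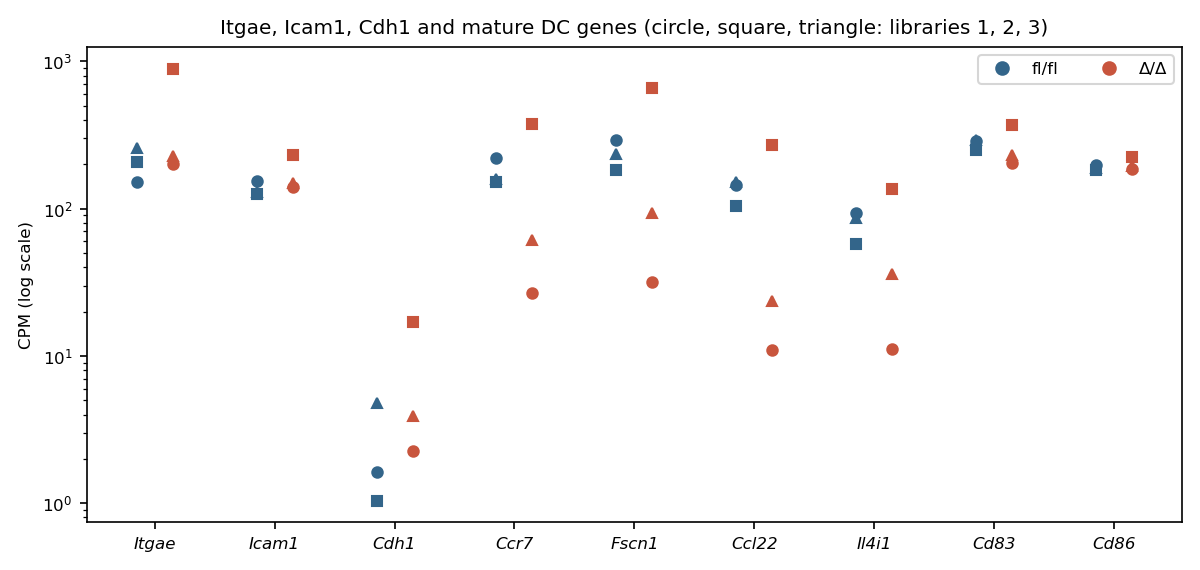
Level in CPM (y axis, log scale) of *Itgae*, *Icam1*, *Cdh1* and the 6 mature DC genes in the fl/fl (blue) and Δ/Δ (red) libraries, with circles, squares and triangles for libraries 1, 2 and 3. Δ/Δ 2 (red square) is the highest library for all 9 genes, and *Ccr7*, *Fscn1*, *Ccl22* and *Il4i1* are lower in Δ/Δ 1 and 3 than in any fl/fl library.

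The β7 chain *Itgb7* (ENSMUSG00000001281.10, chromosome 15, 102215995 to 102231944, minus strand) had the highest level per length of the 10 genes. It had 1196, 1196 and 1245 CPM in the fl/fl libraries against 1267, 1155 and 1426 CPM in Δ/Δ 1, 2 and 3, and the genotypes overlapped (log2 fold change 0.08 ± 0.08 SE, edgeR adjusted p = 0.625). Its partner *Itga4* (ENSMUSG00000027009.18, chromosome 2, 79255426 to 79333123), the α chain of receptors for VCAM-1 and MAdCAM-1, had 318, 344 and 417 CPM in the fl/fl libraries against 256, 309 and 397 CPM in Δ/Δ 1, 2 and 3. Here too the genotypes overlapped (log2 fold change −0.16 ± 0.17 SE, edgeR adjusted p = 0.640). *Cerkl* on the opposite strand overlaps 1124 of its exonic bases.

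The ratio of *Itgb7* to the sum of *Itgae* and *Itga4*, per length, was 7.73, 6.20 and 5.21 in fl/fl 1, 2 and 3 and 7.36, 1.92 and 6.57 in Δ/Δ 1, 2 and 3. Δ/Δ 2, the library with high *Itgae*, had the low value. The difference was −0.48 on the log2 scale (exact permutation test, p = 0.8, adjusted 0.8) and turned to 0.14 without Δ/Δ 2. *Itgb1* (ENSMUSG00000025809.15, chromosome 8, 128685654 to 128733200), the β chain of the matrix receptors, had 502, 493 and 537 CPM in the fl/fl libraries against 447, 489 and 473 CPM in Δ/Δ 1, 2 and 3. All Δ/Δ libraries were slightly lower (log2 fold change −0.12 ± 0.06 SE, edgeR adjusted p = 0.331).

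Over the 10 genes, 5 fitted levels were higher in Δ/Δ and 5 were lower, at a median log2 fold change of −0.02 against 0.0018 over all genes tested. The genotypes did not overlap for 6 of the 10, lower in Δ/Δ for *Itgax*, *Itgal*, *Itgb1* and *Itgb2* and higher for *Itgam* and *Itgad*. For *Itgb1* the gap was narrow, from 493 CPM in fl/fl 2 to 489 CPM in Δ/Δ 2. *Itgad* had few reads, with 17 in fl/fl 2 and 16 in Δ/Δ 2 before scaling. Among all genes tested, 26.0% did not overlap.

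The other integrin subunits were mostly low in these cells. Of 18, 11 were tested, and *Itgb6*, *Itga9* and *Itga11* had no read in any library, which allows up to 0.0206 CPM over the 6 libraries (3 reads, counting error only). *Itga6*, the α6 chain of laminin receptors, fell from 20.4, 20.6 and 14.1 CPM in fl/fl 1, 2 and 3 to 7.83, 5.18 and 4.01 CPM in Δ/Δ 1, 2 and 3. It was the only one of the 11 to pass, beside 1.85% of all genes tested that passed lower (log2 fold change −1.69 ± 0.27 SE, edgeR adjusted p = 0.0209), though the same test gave 0.113 with fl/fl 1 left out and 0.107 with fl/fl 2 left out. The median of the 11 was −0.21, with 8 lower and 3 higher. *Itga1*, an α chain of collagen receptors named after its values were seen, had the highest counts of them, 256 to 294 CPM in the fl/fl group against 278 to 309 CPM in Δ/Δ.

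Of 20 genes for integrin ligands, 9 were tested. *Spp1*, for osteopontin, a secreted ligand of several integrins, fell from 39.0, 34.6 and 26.1 CPM in fl/fl 1, 2 and 3 to 18.0, 10.5 and 11.1 CPM in Δ/Δ 1, 2 and 3, with no overlap. It alone of the 9 passed, beside the same 1.85% (log2 fold change −1.33 ± 0.24 SE, edgeR adjusted p = 0.0313), but not without fl/fl 1 (0.143), fl/fl 2 (0.141), fl/fl 3 (0.0557) or Δ/Δ 3 (0.0862). The median of the 9 was 0.42, with 7 higher and 2 lower. Only *Spp1* (lower) and *C3* (higher) had no overlap between the genotypes, and *C3* had at most 3.03 CPM. The median gene, *Icam5*, had 0.617 to 1.40 CPM over the libraries. *Icam2*, counted as higher, had a log2 fold change of 0.00027. *Cdh1* and *Thbs1*, also counted as higher, were highest in Δ/Δ 2, with 17.0 and 3.78 CPM there. These genes other than *Spp1* were named after their values were seen.

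Of 39 genes that activate integrins or join them to the cytoskeleton, 33 were tested, with a median log2 fold change of 0.02. *Ptk2*, for focal adhesion kinase, was the only one to pass, beside 1.85% of all genes tested that passed lower. It fell from 42.0, 45.9 and 39.5 CPM in fl/fl 1, 2 and 3 to 32.1, 30.2 and 25.2 CPM in Δ/Δ 1, 2 and 3 (log2 fold change −0.54 ± 0.11 SE, edgeR adjusted p = 0.0464). The adjusted p was 0.0599 to 0.194 without any 1 of 5 libraries and under the threshold without Δ/Δ 1 (0.0195). Talin (*Tln1*), kindlin-3 (*Fermt3*) and filamin A (*Flna*), which bind β tails and were named after their values were seen, had log2 fold changes of 0.03, 0.06 and 0.02.

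The 3 genes closest in pattern to *Itgax* across the 6 libraries were *Clec12a*, a C-type lectin receptor, *Dab2*, an endocytic adaptor, and *Psen2*, a presenilin. Likeness was the root mean square difference of centred log2 CPM, 0.104, 0.113 and 0.181 for these 3, against a median of 0.667 over 8548 genes with a mean of at least 10 CPM. *Clec12a* went from 80.9 to 38.2 CPM in the means, *Dab2* from 89.3 to 36.5 CPM and *Psen2* from 37.3 to 16.5 CPM.

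The targeted genes were checked in every library. *Jun* had 70.9, 52.5 and 63.1 CPM in the fl/fl libraries against 48.2, 44.3 and 60.5 CPM in Δ/Δ (log2 fold change −0.29, edgeR adjusted p = 0.345), and *Junb* had 315, 274 and 413 CPM in the fl/fl libraries against 110.4, 171 and 212 CPM in Δ/Δ (log2 fold change −1.02, edgeR adjusted p = 0.0729). *Junb* passed with DESeq2's Wald test (adjusted p = 0.000119), and in edgeR's test with no filter on low counts (adjusted p = 0.0161) and with Δ/Δ 1 left out (adjusted p = 0.0359). Such gene counts are no measure of how many cells carried the deletion. Of 10 cDC1 markers, 2 passed, both lower, with summed levels of 9387 to 9503 CPM in the fl/fl group against 7914 to 8694 CPM in Δ/Δ. The defining marker *Xcr1*, a chemokine receptor, fell from 475, 421 and 443 CPM to 178, 201 and 122 CPM (log2 fold change −1.42 ± 0.17 SE, edgeR adjusted p = 0.00812). Without fl/fl 1 or fl/fl 2 its adjusted p was 0.0569 or 0.0501 (edgeR). *Tlr3* was the other that passed (log2 fold change −0.77). *Clec9a*, also defining, had 267 to 273 CPM in the fl/fl group against 203 to 270.3 CPM in Δ/Δ and did not pass. Of those that did not pass, *Cd24a* (log2 fold change −0.30) and *Wdfy4* (−0.28) were lower and *Cadm1* (0.32) higher in Δ/Δ without overlap. With DESeq2, 5 of the 10 cDC1 markers passed, beside 1104 genes in all, of 12894 fitted.

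Some markers of other myeloid cells also differed. Of 8 cDC2 markers, 3 passed and rose (*Klf4*, *Cd4* and *Cd209a*), and the sum of all 8 was 186 to 282 CPM in the fl/fl group against 452 to 618 CPM in Δ/Δ. *Klf4* did not pass without fl/fl 1, 2 or 3 or Δ/Δ 3 (edgeR adjusted p of 0.158, 0.166, 0.0558 and 0.0502). *Irf4* had 27.4, 32.1 and 43.9 CPM in the fl/fl libraries against 55.6, 71.9 and 120 CPM in Δ/Δ, without overlap. Its difference did not pass (log2 fold change 1.26 ± 0.30 SE, edgeR adjusted p = 0.0699). *Sirpa*, the gene of the CD172a that the sort left out, had 44.7 to 60.5 CPM in the fl/fl group against 40.9 to 46.8 CPM in Δ/Δ, and *Esam* at most 1.07 CPM. Of 7 tested monocyte and macrophage markers, 2 rose (*Ccr2* and *Adgre1*), with sums of 2450.1 to 2871 CPM and 3466 to 4312 CPM. *Lyz2*, the highest of the list, overlapped, with 1760, 1939 and 1921 CPM in the fl/fl libraries against 2378, 1895 and 2520 CPM in Δ/Δ. *Cd14* had 0.694, 0.593 and 1.53 CPM in the fl/fl libraries against 0.730, 1.26 and 12.2 CPM in Δ/Δ. Over all libraries *Csf1r* had 3.59 to 6.81 CPM and *Ly6c2* 1.59 to 4.17 CPM. *Fcgr1* had at most 1.17 CPM and *Mertk* at most 0.552 CPM. Of 6 tested pDC markers, 1 rose, with sums of 225 to 243 CPM and 245 to 295 CPM. No tested marker of neutrophils (2 tested), NK and T cells (1) or B cells (4) passed by edgeR or DESeq2, or had an unadjusted p under 0.05 in edgeR's test. Their sums were at most 12.4, 0.964 and 37.8 CPM, the last in Δ/Δ 2, and *Ly6g* and *Elane* had no read. Over all genes tested, 3.88% passed in either direction. With DESeq2, 4 cDC2, 2 monocyte and macrophage and 3 pDC markers passed, beside 1104 genes in all. The part of such cells in the *Itgam* and *Itgax* differences was not tested.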

How the data were processed

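Stranded poly(A) libraries of 6 cDC1 samples were sequenced on a NextSeq500. The authors aligned reads to mm10 with STAR 2.6.1a and Gencode vM19 and deposited raw counts of uniquely mapped reads per gene, unpooled. Per the submitters' notes, bcl2fastq 2.19.1.403, RSEM and DESeq2 1.20.0 were used too. The strand column was not given in the sources used here. STAR's tallies outside genes (1.81 to 1.98% of reads ambiguous, 8.57 to 10.3% on no gene) were left out of library sizes.

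Counts were fitted here on genotype by glmQLFit and glmQLFTest (edgeR 4.0.16, R 4.3.3), after filterByExpr (10 reads at minimum, 15 in total) and TMM scaling (0.989 to 1.01). Adjustment was over 12894 genes. As alternatives, size factors of DESeq2, its Wald test (1.42.0), limma-voom (limma 3.58.1), no filter, a stricter filter, a term for replicate number and each library left out were tried. Names and coordinates come from GENCODE M21, in which 54495 identifiers were found. Ratios used exact permutation tests in scipy 1.17.1. No pair of libraries within a genotype agreed within sampling noise by a chi-square test over genes. Steps were tested on simulated data.

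The genes and lists were chosen with earlier results of these data known. Named are the 10 genes, *Jun*, *Junb*, list genes and genes within 500 kb of *Itgax* with an adjusted p under 0.05 (at most 10 a list) and the 3 genes nearest to *Itgax* in pattern. Other genes named (overlapping genes, markers, *Cdh1* and those said to be so) were chosen after their values were seen.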

Additional observations from a re-analysis of the deposited data

How the results depend on the processing

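Of 119 log2 fold changes of the 10 genes under 12 alternatives, 112 kept their direction and side of the threshold (*Itgad* left the tested genes under the stricter filter). *Itgax* went over the threshold 3 times, *Itgam* came under it 3 times, and *Itgb7* turned to −0.0017 without Δ/Δ 3 (−0.0017 to 0.15 over libraries left out). Genes of the 10 past the threshold numbered 2 with DESeq2's Wald test, with no filter and with a replicate block, and 0 to 1 with a library left out. Over all genes, 500 became 1104 with DESeq2 and 762 with no filter, and 240 called became 385 with DESeq2. These ran from 95 (without fl/fl 1) to 1320 (without Δ/Δ 1) and from 74 to 579 called. Ligands past the threshold numbered 2 with DESeq2, limma-voom and no filter, and adaptors 6, 2 and 3. With a library left out, other subunits numbered 0 to 1, ligands 0 to 3 and adaptors 0 to 6. The *Itgb7* partner ratio ran from −0.83 to 0.14, reversed without Δ/Δ 2. The cause was not tested. Deviations of same-numbered libraries correlated at 0.09, −0.15 and 0.20, and those of other pairs at −0.22 to 0.15 (the highest for fl/fl 2 with Δ/Δ 1). Correlations this small cannot decide whether the numbers pair the cultures. With the replicate block, *Itgam* had an adjusted p of 0.0305 (edgeR), *Itgax* one of 0.00412 and *Junb* one of 0.0370. At 12 to 29 reads a library, counting limits the precision of *Itgad*.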

Other observations

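Among the ligands and adaptors that did not pass, the 5 with the lowest adjusted p are given, chosen after their values were seen. *C3*, the complement component whose fragment iC3b is bound by CD11b and CD11c, had 0.386, 1.08 and 0.339 CPM in the fl/fl libraries against 2.35, 3.03 and 2.25 CPM in Δ/Δ 1, 2 and 3, without overlap (log2 fold change 2.06 ± 0.47 SE, edgeR adjusted p = 0.0615). *Rap1gap2*, which switches off the integrin activator Rap1, had 36.9, 37.0 and 34.7 CPM in the fl/fl libraries against 16.8, 20.02 and 27.6 CPM in Δ/Δ (log2 fold change −0.75 ± 0.17 SE, edgeR adjusted p = 0.0643). *Parvg*, for γ-parvin, had 289.9, 284 and 264 CPM in the fl/fl libraries against 250.1, 209.9 and 224 CPM in Δ/Δ (log2 fold change −0.29 ± 0.08 SE, edgeR adjusted p = 0.0940). *Ilk*, the integrin-linked kinase, had 171, 159 and 161 CPM in the fl/fl libraries against 149, 132 and 125 CPM in Δ/Δ (log2 fold change −0.27 ± 0.08 SE, edgeR adjusted p = 0.110). The genotypes did not overlap for either of these. *Fgr*, a kinase downstream of β2 integrins, had 12.2, 14.7 and 20.5 CPM in the fl/fl libraries against 18.7, 45.0 and 41.8 CPM in Δ/Δ, with 1 Δ/Δ library inside the fl/fl range (log2 fold change 1.16 ± 0.34 SE, edgeR adjusted p = 0.124).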
